A study of Mus musculus with 6 samples.

Results

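The 10 genes described here, Pecam1, Cdh5, Kdr, Flt1, Tie1, Tek, Esam, Emcn, Plvap and Cldn5, mark the endothelial cells that line blood vessels. They were chosen by name, 10 of the 27827 gene names on the array, and every non-control probe that carries 1 of these names on the array was taken, which gave 18 of 41174 probes. The samples were pancreatic islets of male mice from a pair of obese strains. The labels call NZO/HiBomDife mice, a New Zealand Obese strain written NZO here, prone to diabetes. They call C57BL/6.V-Lepob/ob mice, written B6-ob/ob and homozygous for the ob mutation of leptin, resistant to it. Both groups ate a high-fat diet free of carbohydrate up to 18 weeks of age, and islets were taken 48 h after a diet with carbohydrate replaced it. Each strain has 3 samples with 1 array each, numbered 10, 11 and 12 in NZO and 4, 5 and 6 in B6-ob/ob, and values of a strain are given in that order. Nothing in the labels tells whether 1 mouse or several gave a sample, and p-values then measure only how these samples spread, which may be technical. Islets taken before the diet change were not analysed here.

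Islets are threaded by a dense bed of capillaries whose endothelial cells have pores, through which glucose reaches the beta cells and insulin reaches the blood. Vascular endothelial growth factor A, made by beta cells, acts on these endothelial cells through the receptor that Kdr encodes, while Flt1 encodes a receptor that binds the same ligand. Tie1 and Tek encode the receptors of the angiopoietin system, and Cdh5, Pecam1, Esam and Cldn5 encode proteins of the contacts between endothelial cells. Emcn encodes a surface sialomucin of capillaries and veins, and Plvap a protein of the diaphragms that span the pores.

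Each probe is a 60-base oligonucleotide, and its level is given as the log2 of the processed intensity minus the array's 75th percentile. Each array read between 23621 and 24710 of its 41174 probes well above background, and precision is limited by how few arrays there are. The arrays stood on 3 slides. Slide 2 held NZO replicate 10 and B6-ob/ob replicate 4, slide 3 held NZO replicate 11 with B6-ob/ob replicates 5 and 6, and slide 1 held NZO replicate 12. The insulin genes Ins1 and Ins2 were well above background on all 6 arrays and differed by 0.07 and 0.06 between strains (limma adjusted p = 0.78 and 0.853). All differences are the NZO mean minus the B6-ob/ob mean, with the strain taken from the label of each scanner file. The value table deposited with them gives the opposite direction, and each of its columns follows an array labelled with the other strain (Pearson r across probes of 0.966 to 0.984). Islets were measured as a whole, so a difference in the number of endothelial cells and 1 in RNA per endothelial cell cannot be told apart.

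The probes show which stretch of each transcript was read. The first 30 of their 60 bases are printed 5′ to 3′ as the files give them, in lower case with no base singled out, for the genes that differed and for genes whose probes gave different readings. The scanner files give positions on the mm9 build without exon or UTR, and none is named here.
Cldn5 probe 1: tcctactgagatcctgggggcactagatgc
Esam probe 1: gacaaaaggaggaaatggacctgaggtagg
Cdh5 probe 1: tccgtcaacttcaggaaaatggcttgtcga
Cdh5 probe 2: acttattataagactctagttctcacagac
Kdr probe 1: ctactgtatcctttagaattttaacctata
Kdr probe 2: gtacaataacatgcaaaggtatatcaaagg
Flt1 probe 1: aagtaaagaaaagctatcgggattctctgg
Flt1 probe 2: caccaagctttgatggcattcaaagatgtc
Flt1 probe 3: cctgtattattccgattttaataatctaat
The Cldn5 probe lies at chr16:18778046-18778105 and the Esam probe at chr9:37345544-37345603, both on the plus strand. The Cdh5 probes lie on the plus strand at chr8:106667499-106667558 and chr8:106668159-106668218. Kdr probe 1 lies at chr5:76329309-76329368 on the minus strand, and Kdr probe 2 starts 28330 bases away at chr5:76357639-76357698. Flt1 probes 1 and 3 are neighbours on the minus strand of chromosome 5, starting at 148373791 and 148373864, while probe 2 starts at 148449781, 75990 bases from probe 1.

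Of the 10 endothelial genes, 2 were higher in NZO by their brightest probe, against 13.2% of all genes, and 8 did not pass the test between strains. The 2 are the junction genes Cldn5 and Esam, while the junction genes Cdh5 and Pecam1 were among the 8. Cldn5, a claudin of endothelial tight junctions, was 5.50-fold higher in NZO, and Esam, an adhesion molecule of the same junctions, was 1.76-fold higher. The growth factor and angiopoietin receptors Kdr, Flt1, Tie1 and Tek differed by at most 0.30 on the log2 scale by any kept probe, and none passed the test. The filter asked for a reading well above background on 3 or more of the 6 arrays. It kept 13 of the 18 probes, which read above background on all 6 arrays and covered all 10 genes. Of these 13 probes 2 were called higher in NZO by limma at an adjusted p under 0.05 and 0 lower, while over all 24628 tested probes 11.5% were higher and 10.3% lower. At an unadjusted p under 0.05 both Cdh5 probes also stood higher, and no member probe was lower. All 3 NZO arrays stood above all 3 B6-ob/ob arrays at 5 of the 13 probes, against 18.6% of all tested probes. The median difference was 0.25 over the 13 probes and -0.06 over all tested probes, with 12 of the 13 above 0 against 43.9% of all tested probes, and several of the 13 read the same gene.

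**Figure D1:**
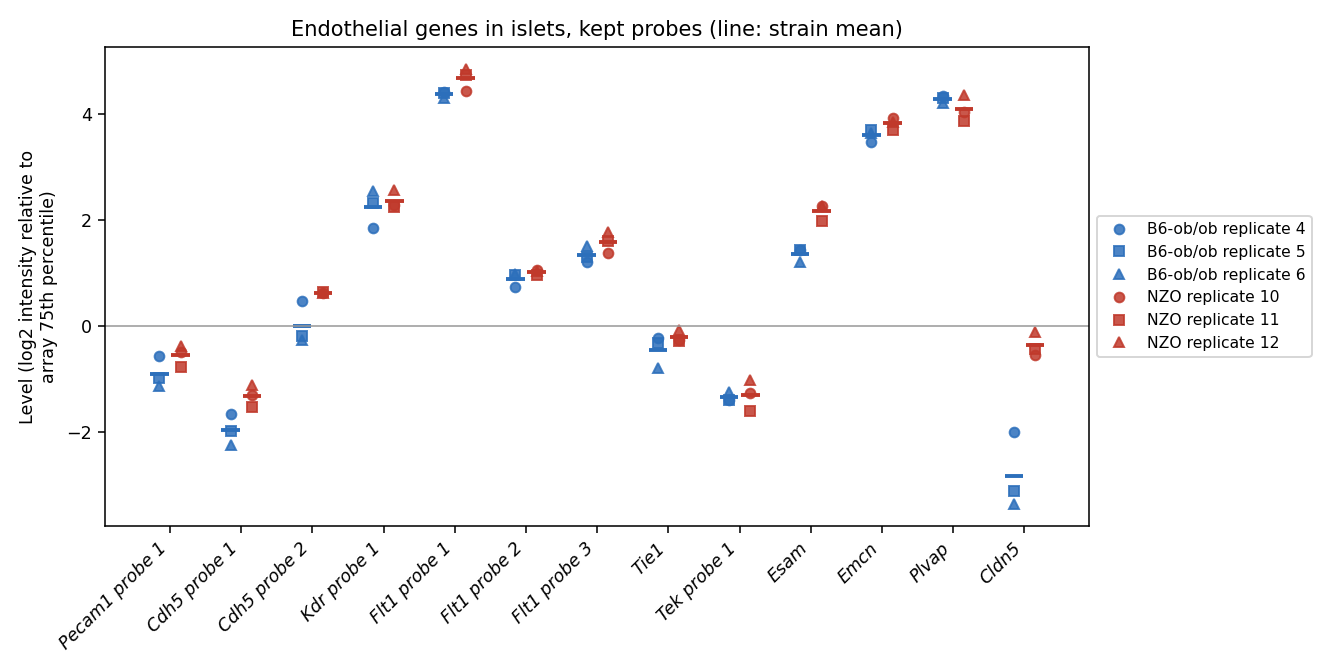
Level of the 13 kept probes of the 10 endothelial genes on each array, in log2 intensity relative to the array's 75th percentile, with B6-ob/ob in blue, NZO in red and a line at each strain's mean. The strains stand apart at Cldn5, Esam, both Cdh5 probes and Flt1 probe 1 and overlap at the other 8 probes; levels of different probes are not comparable.

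Among the junction genes, Cldn5 differed the most. Its processed intensity was 297, 254 and 380 in NZO and 92.4, 52.4 and 43.1 in B6-ob/ob. All NZO arrays were higher than all B6-ob/ob arrays, and B6-ob/ob replicate 4 was the highest of its strain. The mean level in NZO was -0.36 ± 0.23 (SD, n = 3) and that in B6-ob/ob -2.82 ± 0.72. The strains thus differed by 2.46 ± 0.36 (standard error), with a 95% interval of 1.58 to 3.33 (limma adjusted p = 0.00543). With normexp background correction and quantile normalisation the difference was 1.63 and stayed past the threshold (limma adjusted p = 0.00175). Within slide 2 the difference was 1.45 and within slide 3 it was 2.80, and with slide as a block it was 2.22 (limma adjusted p = 0.0242).

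Esam, an immunoglobulin-family adhesion molecule, had levels of 2.27, 1.99 and 2.26 in NZO. In B6-ob/ob it stood at 1.44, 1.43 and 1.21. The strains did not overlap, and the spread within each was small beside the gap. The difference was 0.81 ± 0.14 (standard error), with a 95% interval of 0.48 to 1.15 (limma adjusted p = 0.00893). It was 0.83 within slide 2, 0.67 within slide 3 and 0.74 with slide as a block (limma adjusted p = 0.0478).

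Cdh5 encodes VE-cadherin, the cadherin that holds endothelial cells together. Its probe 2 stood at 0.63, 0.64 and 0.63 on the NZO arrays and at 0.47, -0.19 and -0.26 in B6-ob/ob. Its probe 1 stood at -1.30, -1.52 and -1.12 in NZO and at -1.65, -1.97 and -2.25 in B6-ob/ob. At both probes the strains did not overlap, and B6-ob/ob replicate 4 lay nearest to NZO. The differences were 0.64 (95% interval 0.17 to 1.11) at probe 1 and 0.63 (0.11 to 1.14) at probe 2, with limma adjusted p of 0.0623 and 0.0859. Without B6-ob/ob replicate 4 both passed, at 0.79 and 0.86 (limma adjusted p = 0.032 and 0.00645), which made 4 member probes higher in NZO. Probe 2 also passed with normexp background correction followed by quantile normalisation or by the 75th percentile (limma adjusted p = 0.0175 and 0.0223), while probe 1 did not (0.109 and 0.0868). With slide as a block neither passed (limma adjusted p = 0.141 and 0.167). With array weights, a setting that called 10430 probes against 5376, both passed at 0.60 and 0.78 (limma adjusted p = 0.0106 and 0.00544).

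Pecam1, the adhesion molecule CD31 of endothelium, platelets and leukocytes, was read by 10 spots of probe 1 on each array. The probe's stated span, chr11:106542389-106544242, is 1854 bases long for 60 bases of probe. Its level was -0.48, -0.78 and -0.38 in NZO and -0.56, -0.99 and -1.13 in B6-ob/ob. B6-ob/ob replicate 4 lay within the NZO range, so the strains overlapped. The difference was 0.35 with a 95% interval of -0.12 to 0.82 (limma adjusted p = 0.261), and it was 0.19 with slide as a block, 0.23 without B6-ob/ob replicate 6 and 0.51 without replicate 4. Spots of the probe varied by 3.09% to 8.49% of their mean within an array.

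**Figure D2:**
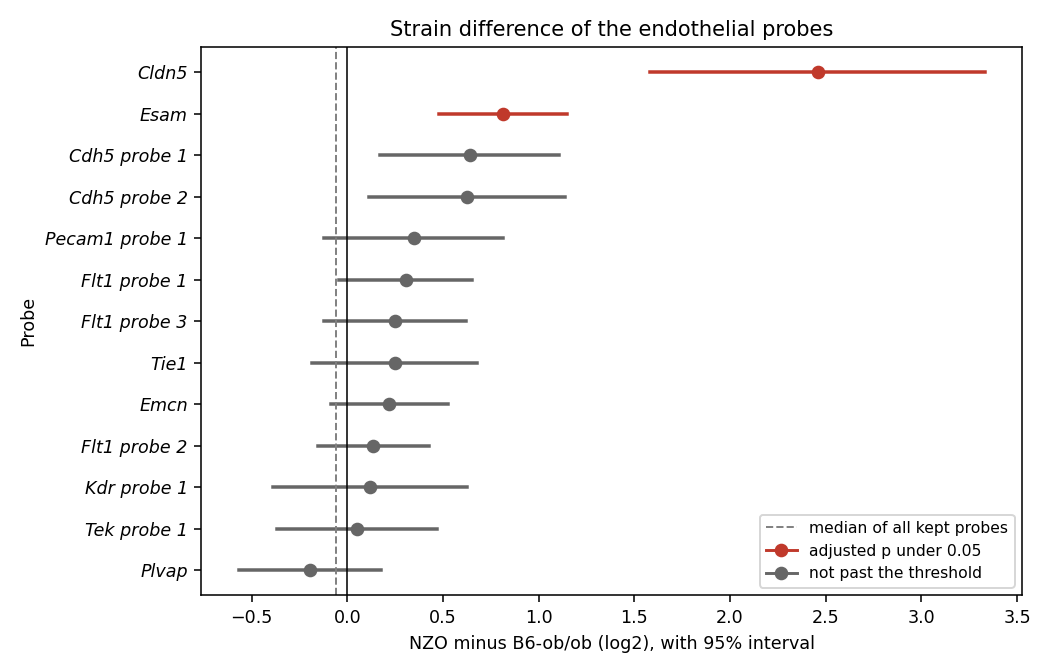
Difference between strains (NZO minus B6-ob/ob, log2) of the 13 kept probes with its 95% interval from limma; red marks an adjusted p under 0.05 and the dashed line is the median of all tested probes. The intervals of Cldn5, 1.58 to 3.33, and Esam, 0.48 to 1.15, lie wholly above 0, as do those of the Cdh5 probes, whose adjusted p missed the threshold.

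Kdr encodes the main signalling receptor for vascular endothelial growth factor A, and its probe 1 was also spotted 10 times. The level was 2.27, 2.24 and 2.56 in NZO. In B6-ob/ob it was 1.85, 2.33 and 2.55. The strains overlapped, and B6-ob/ob replicate 4, the highest of its strain for Cldn5 and Cdh5, was the lowest for Kdr. The difference was 0.12 with a 95% interval of -0.39 to 0.62 (limma adjusted p = 0.74), and without B6-ob/ob replicate 4 it turned to -0.081 (0.764). Without B6-ob/ob replicate 6 the difference was 0.27, without NZO replicate 12 it was 0.015, and with slide as a block it was 0.069. Within slide 2 it was 0.43 and within slide 3 it was -0.20. Spots within an array varied by 2.21% to 3.75% of their mean. Before scaling, the mean intensity of the probe on the B6-ob/ob arrays ran from 1326 to 2583, while the 75th percentile of these arrays ran from 368 to 453.

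Flt1 encodes the second receptor of the same growth factor, which also occurs as a secreted form. Probe 1 stood at 4.43, 4.74 and 4.85 in NZO and at 4.41, 4.40 and 4.29 in B6-ob/ob. NZO replicate 10 lay only just above the highest B6-ob/ob array. The difference was 0.30 with a 95% interval of -0.04 to 0.65 (limma adjusted p = 0.189). At the neighbouring probe 3 the difference was 0.25 and at the distant probe 2 it was 0.14, and at both the strains overlapped (limma adjusted p = 0.303 and 0.472). The 3 kept probes thus gave differences between 0.14 and 0.30, none past the threshold. Probe 2 gave 0.058 without B6-ob/ob replicate 4, and probe 3 gave 0.15 without NZO replicate 12.

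Of the angiopoietin receptor pair, Tek encodes the receptor that binds the angiopoietins and Tie1 its partner. Tek probe 1 stood at -1.25, -1.61 and -1.03 in NZO and at -1.40, -1.40 and -1.24 in B6-ob/ob. The B6-ob/ob arrays lay inside the range of the NZO arrays, at a difference of 0.05 with a 95% interval of -0.37 to 0.47 (limma adjusted p = 0.865). The sign of this small difference turned with the median of each array as the scale (-0.025), with slide as a block (-0.10) and without NZO replicate 12 (-0.083). Tie1 stood at -0.26, -0.27 and -0.08 in NZO and at -0.22, -0.33 and -0.80 in B6-ob/ob, where replicate 6 was the low array. Its difference was 0.25 with a 95% interval of -0.19 to 0.68 (limma adjusted p = 0.384), and it was 0.072 without that array and 0.15 with slide as a block.

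The capillary surface genes did not pass the test either. Emcn stood at 3.93, 3.69 and 3.86 in NZO and at 3.48, 3.71 and 3.64 in B6-ob/ob, a difference of 0.22 (95% interval -0.08 to 0.52, limma adjusted p = 0.274). Plvap stood at 4.03, 3.87 and 4.35 in NZO and at 4.34, 4.30 and 4.20 in B6-ob/ob. It was the member with a negative difference, -0.20 with a 95% interval of -0.57 to 0.17 (limma adjusted p = 0.418). Both genes overlapped between strains, and for Plvap the 3 B6-ob/ob arrays lay inside the NZO range. With slide as a block the Plvap difference was -0.35 (limma adjusted p = 0.182), and it was -0.090 without NZO replicate 11 and -0.33 without NZO replicate 12.

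The other 5 probes were well above background on no array and were not tested. They are Kdr probe 2, Flt1 probes 4 and 5, Tek probe 2 and Pecam1 probe 2. Of the 60 spots of Kdr probe 2 on the 6 arrays, 1 was above background and it was marked as an outlier by the scanner software. Kdr probe 2 was designed on a cDNA clone, as were the other 4, whereas most kept probes were designed on RefSeq transcripts. Pecam1 probe 2, at chr11:106543058-106543117, carries the name Pecam1 in the files although its description there names another gene, a disintegrin and metalloprotease.

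The 10 genes did not follow 1 order of the arrays within a strain. By the brightest probe of each gene, 9 of 10 stood above the strain mean on NZO replicate 12, 4 on replicate 10 and 2 on replicate 11. Over all genes the shares on these arrays were 46.8%, 53.9% and 56.5%. Among the B6-ob/ob arrays, 7 of 10 stood above the strain mean on replicate 4, 6 on replicate 5 and 3 on replicate 6, with shares over all genes of 54.5%, 51.0% and 46.9%. Pecam1, Cdh5, Flt1, Tie1, Esam, Plvap and Cldn5 were highest on replicate 4 and lowest on replicate 6 of this strain, while Kdr and Tek had the reverse order and Emcn peaked on replicate 5. Cldn5 had the widest B6-ob/ob spread of the 10, with an SD of 0.72, against 0.06 for Flt1.

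Markers of other pancreatic cells moved with the strain and with these arrays. The mean level of 8 fibroblast markers was 1.58 to 1.97 on the NZO arrays and -0.41, -1.65 and -2.36 in B6-ob/ob, and all 8 were higher in NZO, against 13.2% of all genes by their brightest probe. Pdgfra, 1 of these 8 and named after its values were seen, was read above background by the 3 NZO arrays alone. It thus passed the filter only through them, and was at least 5.48-fold higher there. Of 14 acinar markers 12 were higher, with means of 5.31 to 5.95 in NZO and 4.25, 3.56 and 2.77 in B6-ob/ob. Of 12 pericyte and smooth muscle markers 10 were higher, among them the capillary pericyte genes Pdgfrb at 1.26 and Rgs5 at 1.14, with means of 0.89 to 1.00 in NZO and -0.05 to -0.42 in B6-ob/ob. In B6-ob/ob the acinar and fibroblast means had the same order as Cldn5. Ctrb1, Krt19 and Col1a1, single markers of acinar cells, ducts and fibroblasts, were higher in NZO by 2.89, 4.37 and 3.89. The part of these cells in the differences of the endothelial genes was not tested.

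**Figure D3:**
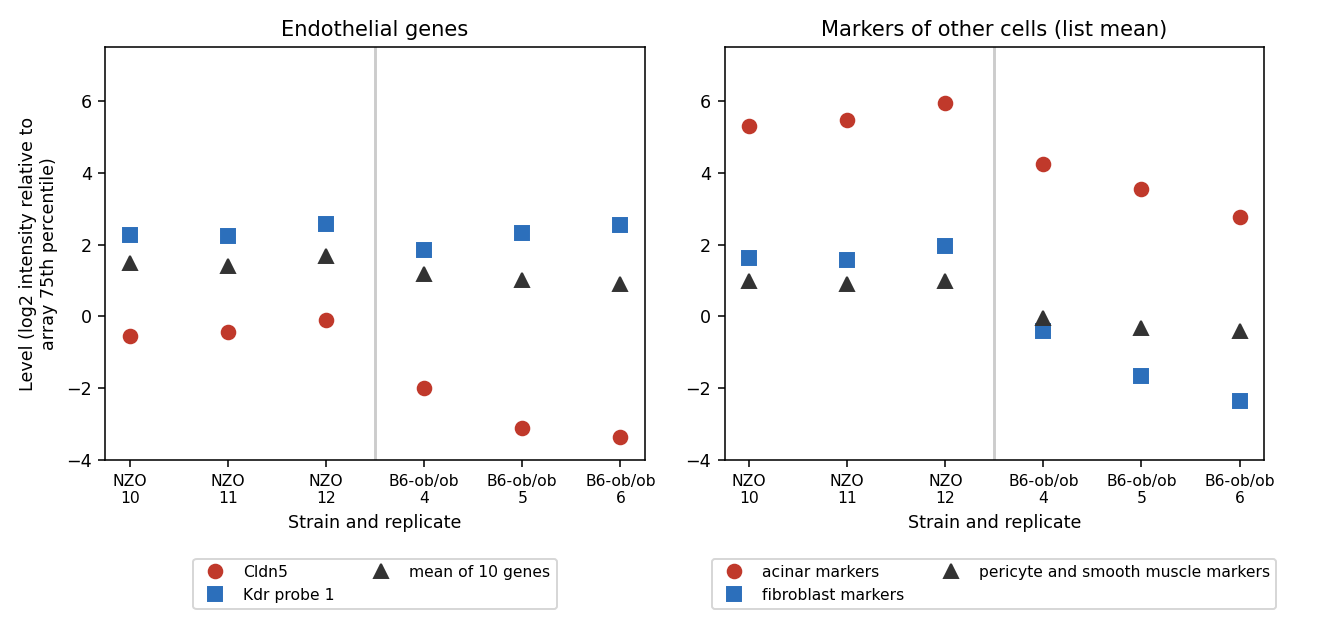
Level on each array (log2 intensity relative to the 75th percentile) of Cldn5, Kdr probe 1 and the mean of the 10 endothelial genes at left, and of the mean of 3 marker lists at right. Among the B6-ob/ob arrays Cldn5 was lowest on replicate 6, at -3.35, as were the acinar and fibroblast means, while Kdr was highest there, at 2.55.

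Blood cells also carry some of these gene products. Of 10 leukocyte markers 5 were measured and 2 were higher in NZO, against 13.2% of all genes by their brightest probe. The 2 were Cd68 at 1.07 and Cd3e at 0.54, named after their values were seen. The list means were -2.27 to -1.83 in NZO and -2.83 to -2.33 in B6-ob/ob. Ptprc, the pan-leukocyte gene, differed by 0.63 (limma adjusted p = 0.0761). Of 10 platelet and megakaryocyte markers 6 were measured, and 4, among them Ppbp, were well above background on no array. By their brightest probe 1 of the 6 was higher and 1 lower, against 13.2% and 8.92% of all genes. Pf4 was the higher one, at 1.47. Clec1b, likewise named after its value was seen, was above background on the 3 B6-ob/ob arrays alone. It thus passed the filter only through them and was at least 5.25-fold lower in NZO. Itgb3, also named after its values were seen, did not pass by its brightest probe. Another kept probe of Itgb3, above background on all 6 arrays, was lower in NZO at -2.55 (limma adjusted p = 0.000582). The list's mean was -3.47 to -3.25 in NZO and -3.25 to -2.72 in B6-ob/ob. The part of blood cells in the values of Pecam1, Esam or Tek was not tested.

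Other genes of the vessels and of the same pathways were read from 5 lists. Of 108 listed genes 100 were measured, each by its brightest kept probe, and 41 were higher and 2 lower in NZO by limma, against 13.2% and 8.92% of all 16384 genes. The same shares stand beside the counts of each list below. The median difference was 0.50, against -0.03 over all genes and 0.28 over the 10 endothelial genes. These lists, like the 10 genes and the other marker lists, were chosen with earlier results of these data known. Their counts beside the shares over all genes are therefore a description and no independent support. Many genes of these lists are known also in fibroblasts, pericytes or epithelium. The number of higher genes was 21 with slide as a block and between 20 and 26 without NZO replicate 10, 11 or 12 or B6-ob/ob replicate 5, which left out 1 array at a time. Over all tested probes the number called higher also fell, from 2840 to 2061 with slide as a block. It was between 1664 and 2338 with the same arrays left out.

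The ligands of the member receptors did not move as 1 group. Vegfa, the ligand of Kdr and Flt1, differed by -0.27 (limma adjusted p = 0.477) and by -0.17 to -0.25 on its other 3 kept probes. Vegfb, a ligand of Flt1, differed by 0.13 and by -0.29 on another probe, and Angpt2, the context-dependent ligand of Tek, by -0.15 (limma adjusted p = 0.776, 0.533 and 0.636). Angpt1, the activating ligand of Tek, was well above background on no array at either probe. Of 16 measured ligands 6 were higher in NZO. Efnb2, among the 6 and named after its values were seen, was higher by 1.02 but differed by 0.11 on another kept probe (limma adjusted p = 0.00517 and 0.855). Angpt4, another angiopoietin, was above background on the 3 NZO arrays alone and thus passed the filter only through them. Angpt4 was at least 2.87-fold higher there. For this bound each dim array was set to the higher of the probe's own signal and the array's dimmest reading that passed the background test. The bound holds for the main processing only. Over 16 other analyses of the scanner files the Angpt4 difference passed the threshold but ran from 0.46 to 3.70. Vegfd, a ligand of the lymphatic receptor, was higher by 1.93, the Notch ligand gene Jag2 by 1.72 and the endothelin gene Edn1 by 2.87, although in B6-ob/ob only 1 of 3 arrays read Edn1 above background. Edn1 missed the threshold with slide as a block (limma adjusted p = 0.0555), as it did when any 1 array other than B6-ob/ob replicate 4 was left out.

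Of 18 other vascular receptors 10 were higher and 1 was lower. Ednrb and Bmpr2, among the 10, were named after their values were seen. Ednrb was higher by 0.61 but differed by -0.46 on another kept probe (limma adjusted p = 0.0147 and 0.106). Bmpr2 was higher by 0.46, and its other kept probes differed by 0.97 and -0.19 (limma adjusted p = 0.0335, 0.00593 and 0.47). Nrp1 and Nrp2, co-receptors of Kdr, were higher by 0.95 and 0.83 (limma adjusted p = 0.0499 and 0.0186). Nrp1 ran from -2.38 to -1.37 over the B6-ob/ob arrays, and its second kept probe differed by 0.74 (limma adjusted p = 0.168). Nrp1 and Nrp2 missed the threshold with slide as a block (limma adjusted p = 0.122 and 0.068), as they did when any 1 of the NZO arrays or B6-ob/ob replicate 5 was left out. Ephb4, the venous ephrin receptor, was higher by 1.38 and the netrin receptor gene Unc5b by 0.97. Acvrl1, an endothelial receptor of bone morphogenetic proteins, was the lower one at -0.44 (limma adjusted p = 0.0315), and it was named after its value was seen. It missed the threshold with slide as a block (limma adjusted p = 0.109) and when any 1 array other than B6-ob/ob replicate 6 was left out (0.0686 to 0.131). Flt4, the lymphatic relative of Kdr, differed by 0.13, and Ptprb, the phosphatase that restrains Tek, by -0.22 (limma adjusted p = 0.602 and 0.298). With slide as a block 3 of the 18 were higher, Ephb4 and Unc5b among them, and without NZO replicate 10 or B6-ob/ob replicate 5 the number was 4.

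Among 22 endothelial transcription factors 10 were higher in NZO and 0 were lower. Foxc1 stood at -0.98, -1.21 and -1.03 on the NZO arrays and at -3.10, -3.06 and -2.94 on the B6-ob/ob arrays, a difference of 1.96 ± 0.12 (standard error, limma adjusted p = 0.000282). Nr2f2, a factor of venous identity, was higher by 1.88 and by 1.81 on its second kept probe. Ets1 and Foxc2 were higher by 1.74 and 1.66, and Erg, the ETS factor that keeps endothelial identity and binds the Cldn5 and Cdh5 genes, by 0.69 (limma adjusted p = 0.0251). Erg missed the threshold with slide as a block (limma adjusted p = 0.102), as it did without NZO replicate 10 or 12 or B6-ob/ob replicate 4 or 5. Foxc1, Nr2f2 and Foxc2 are expressed also by mesenchymal cells. With slide as a block 5 of the 22 were higher, Foxc1, Nr2f2, Ets1 and Foxc2 among them, and 7 were with no filter on dim probes, without NZO replicate 10 or without B6-ob/ob replicate 5.

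Of 31 further endothelial markers 11 were higher and 0 were lower. Sele, which encodes E-selectin, was higher by 3.25, with 2 of 3 arrays of B6-ob/ob reading it above background, Vcam1 by 3.15 and Icam1 by 2.25 (limma adjusted p = 0.0248, 0.0367 and 0.0452). On B6-ob/ob replicate 4 these 3 genes stood highest of their strain, with Icam1 at 3.82 there against 1.74 and 1.51. Sele passed with slide as a block, while Vcam1 and Icam1 did not (limma adjusted p = 0.0443, 0.088 and 0.0719), and none of the 3 passed when any 1 of the NZO arrays or B6-ob/ob replicate 5 was left out. Without B6-ob/ob replicate 6 Sele passed, while Vcam1 and Icam1 did not (limma adjusted p = 0.0348, 0.0574 and 0.0967). Vcam1 and Icam1 are known also in stromal and epithelial cells. Procr, the protein C receptor gene, was higher by 3.21 (limma adjusted p = 0.00586). Vwf, the clotting factor that endothelial cells store, was 2.06, 1.75 and 2.29 on the NZO arrays and 1.19, 0.23 and -0.95 in B6-ob/ob. It was higher by 1.88 (limma adjusted p = 0.0471), and by 1.94 on its second probe, which missed the threshold (0.0567). The first probe missed it too with slide as a block (limma adjusted p = 0.106), as it did when any 1 of the NZO arrays or B6-ob/ob replicate 5 was left out. The number of higher genes in this list was 3 when NZO array 10 or 12 or B6-ob/ob array 5 was left out, 4 without NZO replicate 11 and 5 without B6-ob/ob replicate 6 or with slide as a block. It was 6 with no filter on dim probes, 14 without B6-ob/ob replicate 4 and 17 with array weights. Array weights also raised the number called higher over all tested probes, from 2840 to 4909.

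Of 13 partners of the endothelial junctions 4 were higher and 1 was lower. Jam2, a junctional adhesion molecule, was 0.04, 0.32 and 0.10 on the NZO arrays and 3.26, 3.21 and 2.24 in B6-ob/ob. Every NZO array was below every B6-ob/ob array. It was lower in NZO by the difference -2.75 ± 0.29 (standard error, limma adjusted p = 0.00172), and by -1.85 on its second kept probe (0.00156). The tight junction genes Cgnl1 and Ocln were higher by 1.53 and 1.42 and the plakoglobin gene Jup by 0.51 (limma adjusted p = 0.0051, 0.0122 and 0.0294), all known also in epithelium. Ocln missed the threshold without NZO replicate 11 or B6-ob/ob replicate 5 (limma adjusted p = 0.051 and 0.053). The number of higher genes was 1, Cgnl1, in each of these settings. It was 2 with slide as a block, where Jup missed the threshold (limma adjusted p = 0.115), and 2 with the median of each array as the scale, with no filter and without NZO replicate 10 or 12.

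**Figure D4:**
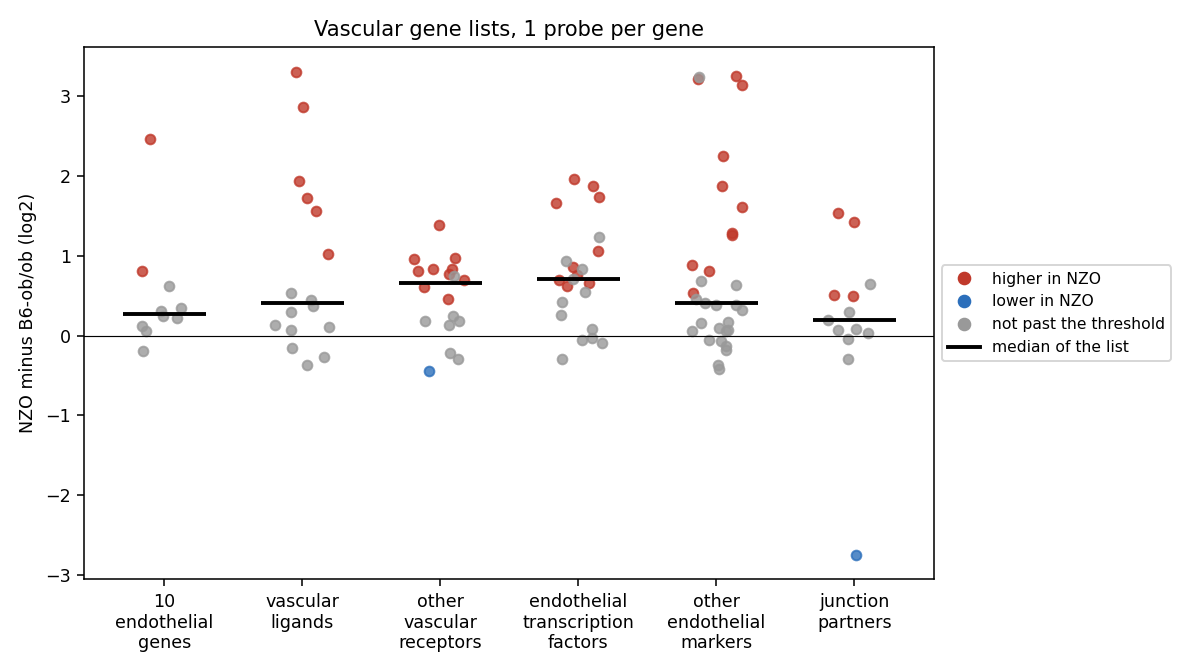
Difference between strains (NZO minus B6-ob/ob, log2) of the 10 endothelial genes and of 5 lists of vascular genes, 1 point per gene by its brightest kept probe and a bar at each list's median; red is higher and blue lower in NZO at an adjusted p under 0.05. The medians run from 0.19 for the junction partners to 0.70 for the transcription factors, with 0.28 for the 10 genes, and Jam2 is the low point at -2.75.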

How the data were processed

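Total RNA was amplified to Cy3-labelled cRNA and hybridised to 1-colour Agilent arrays of design 014868, per the labels. The deposited scanner files hold spot intensity on a linear scale, with background and spatial trend already removed. The file headers name Feature Extraction 10.5.1.1, although the submitters' processing notes name version 9.1. Control spots and 61 to 76 outlier spots per array were left out, no probe was saturated, and each probe's log2 intensity is the mean of its spots less the array's 75th percentile. The 24628 of 41174 probes that 3 or more of the 6 arrays read above background entered limma 3.58.1 (lmFit, eBayes, R 4.3.3). Two-sided p-values were adjusted by Benjamini-Hochberg across them, with 0.05 as threshold. The fit was checked on simulated data. Genes of the lists were named by accession, symbol or synonym and read by their brightest kept probe. The text names every member probe, up to 4 called genes with the greatest difference of each vascular list, and a set list of further genes. The members and lists were chosen with earlier results of these data known. Endocrine, ductal, lymphatic and red cell markers are given in the closing section. Alternatives covered background, normalisation, the deposited value table of processed intensities, the filter, 1 probe per gene, slide, array weights, the prior variance and each array left out.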

Additional observations from a re-analysis of the deposited data

How the results depend on the processing

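Cldn5 and Esam stayed called as higher in NZO in all 17 other analyses of the scanner files, at 1.63 to 2.87 and 0.74 to 0.91. By its column labels the value table turned every difference it holds, to -0.35 for Pecam1, -0.64 for Cdh5 probe 2, -0.15 for Kdr, -0.15 and -0.29 for Flt1 probes 2 and 3, -0.25 for Tie1, -0.033 for Tek, -0.83 for Esam, -0.21 for Emcn, 0.21 for Plvap and -2.43 for Cldn5. There 0 member probes were higher and 2 lower, and 2 vascular genes were higher and 33 lower. Cdh5 probe 1 and Flt1 probe 1 have no value from it. The sign of Tek turned with the median of each array (-0.025), with slide as a fixed block (-0.10) and without NZO replicate 12 (-0.083), and its values ran from -0.083 to 0.21 over the arrays left out in turn. That of Kdr turned with array weights (-0.0023) and without B6-ob/ob replicate 4 (-0.081), with 0.27 the highest value over the arrays left out. The cause of these changes was not tested. Array weights brought 10430 probes and 4 member probes past the threshold, against 5376 and 2. Leaving out each array in turn gave 2814 to 5102 probes, 2 to 4 member probes higher, and 20 to 43 vascular genes higher and 1 to 2 lower. With slide as a fixed block 21 vascular genes were higher and 1 was lower, and 1 was lower with no filter and with normexp and the 75th percentile. No paired analysis was possible because the strains share no replicate numbers, and slide was the block that could be fitted. Signal over background limits the 5 probes that no array read.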

Other observations

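Lymphatic vessel markers were measured at 5 of 6 genes, and 2 were higher in NZO by limma, against 13.2% of all genes by their brightest probe. Lyve1, a hyaluronan receptor of lymphatic endothelium that some macrophages also carry, was higher by 1.35 and by 1.66 on its second kept probe (limma adjusted p = 0.00489 and 0.00429). Ccl21a, a chemokine of lymphatic vessels and lymph nodes, was higher by 4.50 with 1 of 3 arrays of B6-ob/ob reading it above background (limma adjusted p = 0.0159). Prox1, the transcription factor of lymphatic identity that islet cells also express, differed by 0.39 (limma adjusted p = 0.348). On its other kept probes it differed by -0.12 and 0.073 (limma adjusted p = 0.651 and 0.846). Stab2, a scavenger receptor of sinusoidal and lymphatic endothelium, differed by -0.44 (limma adjusted p = 0.279). Pdpn, the podoplanin gene, was well above background on no array at either of its probes. Of 3 measured red cell markers 0 passed the test in limma, and Alas2 alone had an unadjusted p under 0.05. Ductal markers were higher at 5 of 9 genes, against 13.2% of all genes. Among them were Muc1 and Cftr, which only the 3 NZO arrays read above background and which thus passed the filter only through them. Of 11 endocrine markers 0 were higher and 1, Nkx6-1, was lower, against 13.2% and 8.92% of all genes. Nkx6-1 was named after its value was seen, like Alas2, Muc1 and Cftr.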
